A study of Homo sapiens with 2 samples.

Results

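The genes described here control apoptosis, the programmed death of cells by caspase proteases. They comprise 32 genes of the BCL2 family, the caspases and their regulators, and membership was set by gene name. Of these, 30 were found by gene symbol among the 17687 named genes of the deposited array table. The BH3-only gene BBC3 and the caspase inhibitor gene BIRC3 were not analysed here. The study hybridised total RNA of the established colorectal cancer line SW48, which is human, to whole-transcript GeneChip arrays. One group (siYY1, 1 array) carried a small interfering RNA (siRNA) that targets YY1, a DNA-binding zinc finger protein known both as an activator and as a repressor of genes. The other (siControl, 1 array) had received a negative control siRNA. Both groups were transfected with the same lipid reagent at 5 nmol/L of siRNA and cultured for 3 days. A single siRNA sequence against YY1 was used.

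In the mitochondrial pathway, BH3-only proteins sense stress and either block the anti-apoptotic BCL2 proteins or activate BAX and BAK1, which open pores in the outer mitochondrial membrane. Cytochrome c then leaves the mitochondria and joins APAF1 into the apoptosome, which activates caspase 9, while other released proteins relieve the inhibitor of apoptosis proteins (IAPs) of their hold on caspases. In the death receptor pathway, ligands such as TRAIL assemble FADD and caspase 8 at the membrane, and the decoy caspase CFLAR restrains them. In colon epithelium both pathways take part in the turnover of cells.

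Because each group had a single array, replicate error could not be measured and nothing could be tested, so the differences below describe these 2 arrays. They are given as siYY1 minus siControl on the log2 scale of the deposited values. A difference of at least 1.5-fold was the fixed mark of size. Genes were kept as measurable when their mean over both arrays reached 7.54. This is the median over the named genes, and 8844 genes passed. Values under this level were not shown to be above background. On bulk arrays, fewer cells expressing a gene and less RNA per cell cannot be told apart. The level of YY1 was not analysed here, so the depth of the knockdown was not checked. Of 9 colorectal epithelial markers measured, 6 were kept, among them EPCAM, CDH1, KRT8 and CDX2, whereas CDX1, VIL1 and LGALS4 lay under the filter on both arrays. The kept markers of other cell types were 1 of 6 for fibroblasts (COL1A2), 1 of 6 for leukocytes (CD68, 7.64 in siYY1 and 8.72 in siControl) and 1 of 5 for endothelium (ENG). The reference genes differed by 0.11 (ACTB) and -0.03 (GAPDH).

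Most apoptosis regulators lay close to the siControl value in siYY1. Of the 30 genes, 23 were kept, and 2 of these differed by at least 1.5-fold. Both were among the 5 apoptosome and released mitochondrial proteins. APAF1, the scaffold of the apoptosome, was 1.62-fold higher in siYY1. HTRA2, a mitochondrial serine protease that binds and cleaves IAPs after its release, was 1.75-fold lower. The 2 genes made 8.70% of the kept apoptosis regulators, against a background of 6.82% of all kept genes past 1.5-fold in either direction, so their number did not stand apart from the background. At a smaller mark of 0.32 on the log2 scale, 5 of the 23 (21.7%) were past it, against 25.7% of all kept genes. No regulator was 2-fold higher or lower, a size reached by only 0.95% of all kept genes. Of the 23 kept genes, 13 were above 0 and 10 below, with a median difference of 0.07, beside a median of 0.00 over all kept genes. The median size of a difference, whatever its direction, was 0.15 for these genes and 0.18 for all kept genes.

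**Figure D1:**
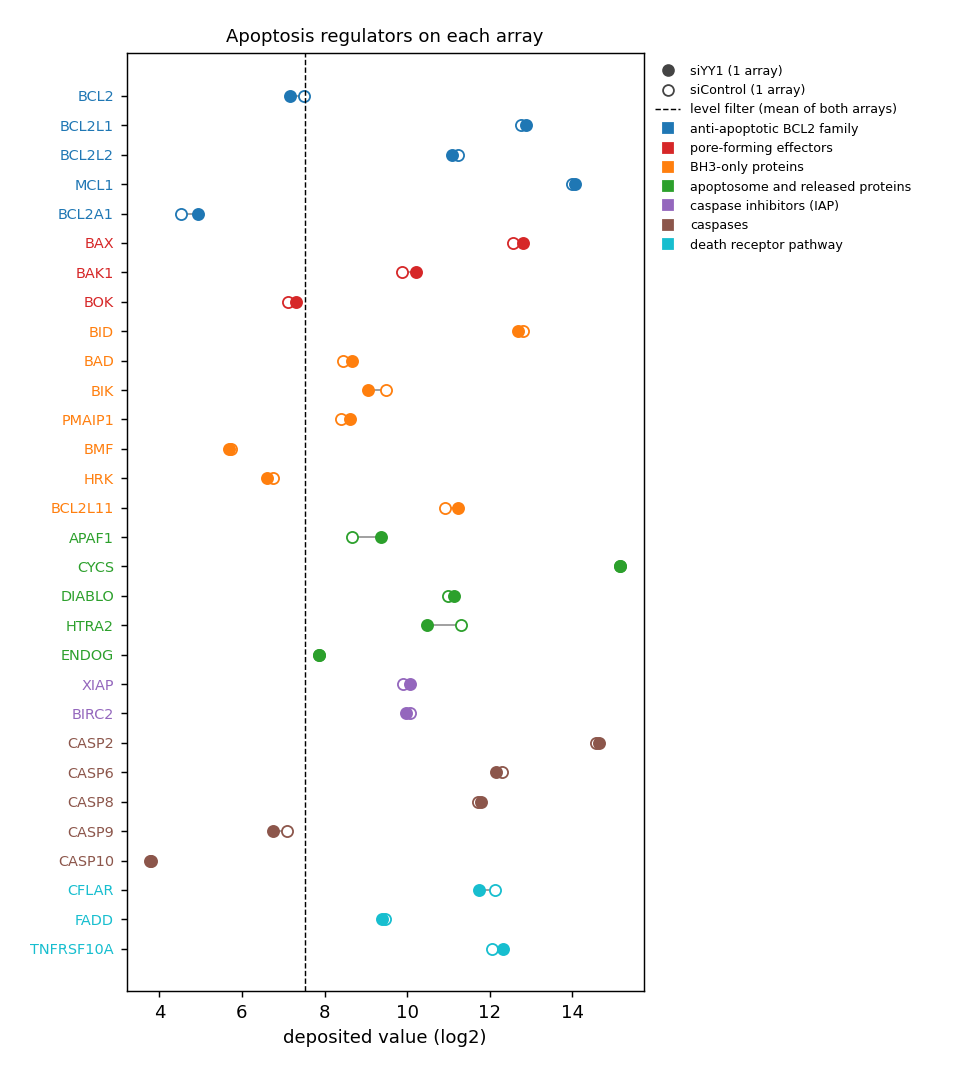
Deposited log2 values (x axis) of the 30 apoptosis regulators (y axis, coloured by role) in siYY1 (filled points) and siControl (open points), 1 array each, with the level filter of 7.54 as a dashed line. The points of most genes nearly coincide, APAF1 and HTRA2 are the widest pairs above the filter, and 7 genes lie left of it.

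The promoters of the genes past 1.5-fold are shown because YY1 is a DNA-binding factor and its knockdown was the treatment. Each sequence is the 250 bases before an annotated gene start, from RefSeq on build GRCh38.p14, written 5′ to 3′ on the gene's strand. HTRA2 has a pair of annotated starts, and both are given. Capitals mark the letters CCATNTT on either strand, where N is any base and the reverse complement reads AANATGG, which form the core of the known YY1 binding motif.
APAF1, chr12:98645040-98645289, plus strand: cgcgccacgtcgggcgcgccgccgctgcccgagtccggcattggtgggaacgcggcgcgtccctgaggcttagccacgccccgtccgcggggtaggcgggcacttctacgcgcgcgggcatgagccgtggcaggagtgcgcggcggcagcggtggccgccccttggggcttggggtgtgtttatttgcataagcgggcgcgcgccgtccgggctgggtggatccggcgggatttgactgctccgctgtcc
HTRA2, upstream start, chr2:74529155-74529404, plus strand: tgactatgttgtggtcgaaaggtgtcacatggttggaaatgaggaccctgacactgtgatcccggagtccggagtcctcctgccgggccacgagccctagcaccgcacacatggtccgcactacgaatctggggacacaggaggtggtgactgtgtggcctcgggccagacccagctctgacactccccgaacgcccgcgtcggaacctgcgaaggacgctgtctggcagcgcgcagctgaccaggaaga
HTRA2, downstream start, chr2:74529683-74529932, plus strand: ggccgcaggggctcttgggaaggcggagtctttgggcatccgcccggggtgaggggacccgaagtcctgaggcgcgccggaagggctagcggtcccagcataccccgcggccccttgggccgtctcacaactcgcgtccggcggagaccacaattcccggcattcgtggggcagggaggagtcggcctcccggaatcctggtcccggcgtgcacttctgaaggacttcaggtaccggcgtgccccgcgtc

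None of these 3 windows contains a capital, so the letters of the core were not in the printed stretches of APAF1 or HTRA2, nor in the first 50 bases after those starts, which were searched as well. The GC content was 73.6% before the APAF1 start, and 62.4% and 70.0% before the HTRA2 starts. Windows of 300 bases (250 before and 50 after a start) were available for 25 of the 30 measured regulators, 46 windows in all. The core letters occurred in 6 of these windows (13.0%) and in 15.6% of all 35116 windows. The longer form, with a G before the core, occurred in 3 of the 46 (6.52%) and in 6.58% of all windows. Both shares of windows were close to those of all windows. Counted per gene, in any of its windows, the core occurred in 5 of 25 regulators (20.0%) and 18.6% of all 27305 genes. The longer form occurred in 3 of 25 (12.0%) and 7.97% of all genes. The regulators had more windows per gene (46 for 25) than all genes (35116 for 27305). This raises a share counted per gene, so the shares of windows are the like comparison. The 3 windows with the longer form belong to BAX, CASP8 and XIAP and are shown for comparison with the windows above.
BAX, chr19:48954625-48954874, plus strand: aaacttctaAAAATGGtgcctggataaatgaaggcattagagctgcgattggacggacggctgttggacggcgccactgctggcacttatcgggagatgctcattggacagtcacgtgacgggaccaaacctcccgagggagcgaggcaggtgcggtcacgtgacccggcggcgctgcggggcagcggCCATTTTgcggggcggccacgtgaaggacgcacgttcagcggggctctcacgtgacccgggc
CASP8, chr2:201260286-201260535, plus strand: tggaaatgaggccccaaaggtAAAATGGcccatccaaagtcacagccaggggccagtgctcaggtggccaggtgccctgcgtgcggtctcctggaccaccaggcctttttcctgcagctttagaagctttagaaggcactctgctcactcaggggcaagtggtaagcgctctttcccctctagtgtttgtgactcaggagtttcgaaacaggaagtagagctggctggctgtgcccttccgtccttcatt
XIAP, chrX:123859803-123860052, plus strand: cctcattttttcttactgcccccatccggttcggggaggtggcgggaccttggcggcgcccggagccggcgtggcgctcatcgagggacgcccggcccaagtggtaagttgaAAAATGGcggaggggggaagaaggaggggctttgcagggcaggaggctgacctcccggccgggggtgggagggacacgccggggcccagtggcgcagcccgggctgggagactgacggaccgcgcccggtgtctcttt

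In BAX the longer form began with its core 62 bases before the start, and a second core without the G lay 241 bases before it on the opposite strand. The cores of XIAP (138 bases before 1 of its 3 starts) and CASP8 (229 bases before 1 of its 3 starts) were on the strand opposite to the gene. The differences of these genes were 0.25 for BAX, 0.16 for XIAP and 0.07 for CASP8, all under 1.5-fold. Windows of DIABLO and CFLAR contained the core without the G, and their differences were 0.13 and -0.40. A match of letters describes the sequence and does not show that YY1 binds there. Absence of the letters from a window, as for APAF1 and HTRA2, does not show that YY1 fails to bind there or elsewhere near the gene. The core occurred in only 15.6% of all windows, so a window without it is common.

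The anti-apoptotic BCL2 proteins hold BAX, BAK1 and BH3-only proteins in check. MCL1, a short-lived member, had a log2 value of 14.06 in siYY1 and 14.00 in siControl. BCL2L1, which encodes BCL-XL, had 12.88 in siYY1 and 12.76 in siControl. BCL2L2, which encodes BCL-W, had 11.09 in siYY1 and 11.23 in siControl. All 3 were far above the filter and within 0.15 of the siControl value, with differences of 0.06, 0.12 and -0.14. The gene for the founding member, BCL2, was dim at 7.16 in siYY1 and 7.51 in siControl, a difference of -0.35. BCL2A1, a member best known from blood cells, was dimmer still, at 4.94 in siYY1 and 4.52 in siControl. Neither reached the filter on either array, so their differences, which were opposite in sign, were not shown to be above background. BCL2L2 shares its locus with the readthrough gene BCL2L2-PABPN1, which had a difference of -0.15, and the probes may not separate them.

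The 2 kept pore-forming effectors, BAX and BAK1, were above 0, as were 4454 of all 8844 kept genes. Neither reached 1.5-fold. BAX had 12.82 in siYY1 and 12.57 in siControl, a difference of 0.25 or 1.19-fold. BAK1 had 10.21 in siYY1 and 9.87 in siControl, a difference of 0.34 or 1.27-fold, the highest among the kept regulators under 1.5-fold. BOK, an effector that is less dependent on BCL2 proteins for its control, was dim, at 7.31 in siYY1 and 7.11 in siControl. Both values of BOK were under the filter, so its positive difference was not shown to be above background. Differences of at least the size of BAK1 were seen in 23.4% of all kept genes, and of at least the size of BAX in 37.2%.

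Set against each other on the same arrays, BAX minus BCL2L1 was 0.13 higher in siYY1 than in siControl on the log2 scale, and BAX minus MCL1 was 0.19 higher. For BAK1 the shifts were 0.22 against BCL2L1 and 0.28 against MCL1. These 4 shifts in the ratio of effector to anti-apoptotic transcript were at most 1.22-fold. BAX minus BCL2 shifted by 0.60 (1.52-fold), of which the larger share came from BCL2, whose values were under the filter. For these pairs and those below, no background was computed, so the sizes of the shifts are only described.

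**Figure D2:**
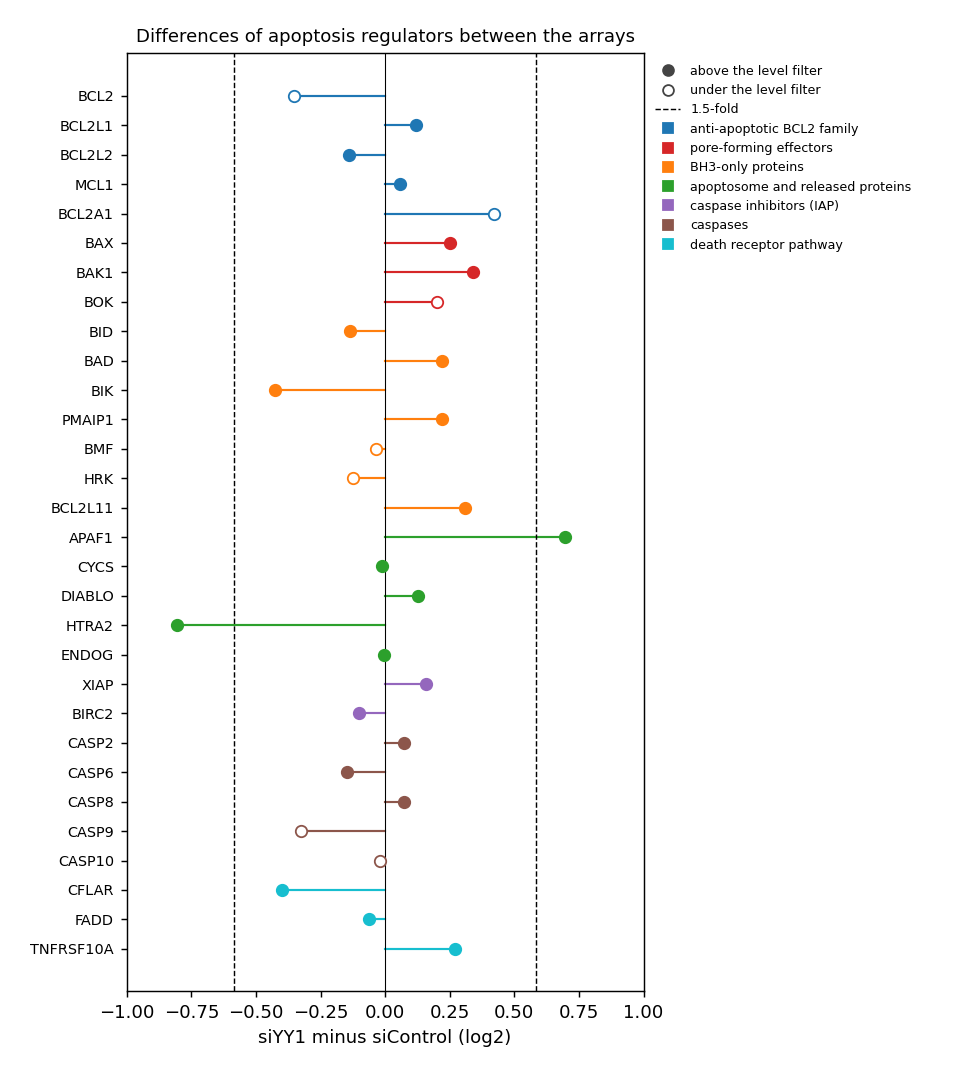
Difference between siYY1 and siControl (log2, x axis) for each apoptosis regulator (y axis, coloured by role), with filled points for genes above the level filter, open points for genes under it, and dashed lines at 1.5-fold. APAF1 (0.69) and HTRA2 (-0.80) lie outside the lines. The 3 effectors lie right of 0, with BOK under the filter, and the other groups fall on both sides.

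The BH3-only proteins, which start the mitochondrial pathway, fell on both sides of 0 and none was past 1.5-fold. Of 7 measured, 5 were kept, 3 of them above 0 and 2 below. BCL2L11, which encodes BIM, an activator that binds every anti-apoptotic member, had 11.24 in siYY1 and 10.93 in siControl, a difference of 0.31. PMAIP1, which encodes NOXA, a partner of MCL1 induced by p53, had 8.63 in siYY1 and 8.41 in siControl. BAD, which is controlled by phosphorylation and binds BCL2 and BCL-XL, had 8.67 in siYY1 and 8.45 in siControl. PMAIP1 and BAD both differed by 0.22, a size reached or exceeded by 43.0% and 42.4% of all kept genes.

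In the other direction, BIK, a BH3-only protein of the endoplasmic reticulum, had 9.05 in siYY1 and 9.48 in siControl. Its difference of -0.43 (1.35-fold lower) was the lowest among the regulators under 1.5-fold. BID, which caspase 8 cleaves to link the death receptors to the mitochondria, had 12.68 in siYY1 and 12.81 in siControl. BMF and HRK were dim on both arrays, with differences of -0.04 and -0.12. BAD overlaps the coding gene GPR137, which differed by 0.83, so the small BAD difference is uncertain to the extent that probes overlap.

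The 5 apoptosome and released mitochondrial proteins included both genes past 1.5-fold. This was 40% of the group, beside 6.82% of all kept genes, and a share of so few genes is imprecise. Genes of later steps in other groups, such as XIAP and BIRC2, were under 1.5-fold. APAF1 had 9.37 in siYY1 and 8.67 in siControl, a difference of 0.69. HTRA2 had 10.49 in siYY1 and 11.30 in siControl, a difference of -0.80. All 4 values were above the filter. By size, HTRA2 stood at position 195 and APAF1 at position 350 of the 8844 kept genes, that is, within 2.20% and 3.96% of them.

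The scatter between the arrays depended on the level. When the kept genes were cut into 4 equal bands of level, 10.4% were past 1.5-fold in the dimmest band, 7.64% in the next, 5.79% in the one above and 3.44% in the brightest. APAF1 fell in the dimmest band, where the differences had an SD of 0.37 across genes, and HTRA2 in the second brightest, where the SD was 0.30. The SDs are across genes and are no replicate error. The HTRA2 gene overlaps AUP1, which differed by 0.20, and LOXL3, which differed by 0.65 with a mean under the filter. Both neighbours were higher in siYY1, opposite to HTRA2. APAF1 overlaps ANKS1B, which was dim and differed by 0.06.

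The other proteins of this group stayed near 0. CYCS, which encodes cytochrome c, the partner of APAF1 in the apoptosome, had 15.15 in siYY1 and 15.16 in siControl. CYCS has many processed pseudogenes that probes can share. DIABLO, which encodes SMAC, an IAP antagonist released together with HTRA2, had 11.13 in siYY1 and 11.00 in siControl. ENDOG, a mitochondrial nuclease that can enter the nucleus, had 7.87 in siYY1 and 7.88 in siControl, just above the filter. DIABLO overlaps the coding gene B3GNT4, which was dim and differed by -0.43, and ENDOG overlaps SPOUT1, which was kept and differed by -0.52, so both values are uncertain where probes overlap. Set against their partners, APAF1 minus CYCS was 0.70 higher in siYY1 than in siControl on the log2 scale. HTRA2 minus XIAP differed by -0.96, while DIABLO minus XIAP differed by -0.03. The larger shares of the APAF1 and HTRA2 shifts came from APAF1 (0.69) and HTRA2 (-0.80) themselves.

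**Figure D3:**
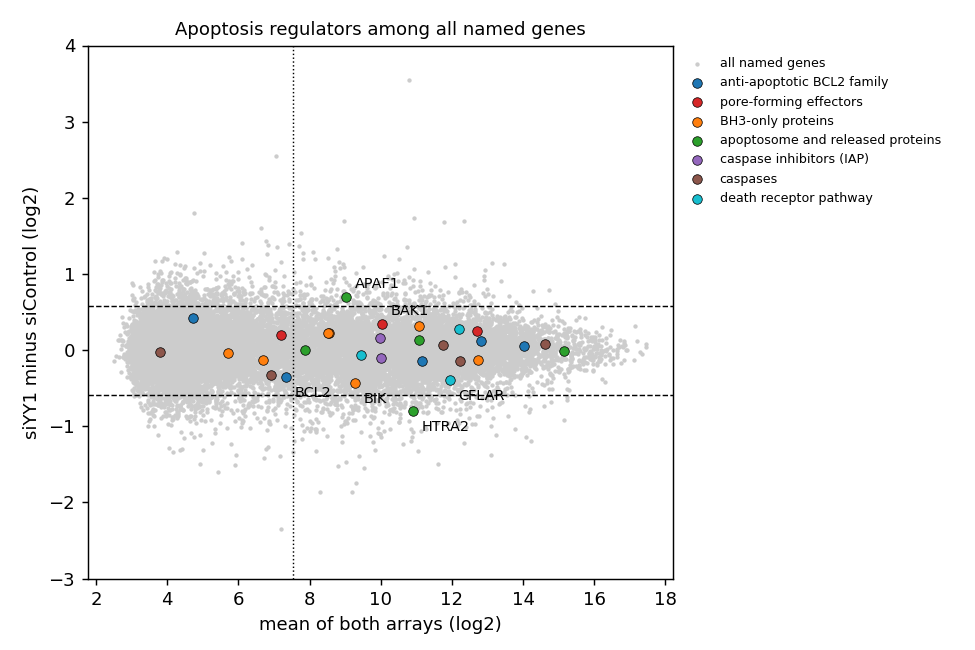
Mean of both arrays (log2, x axis) against the difference between siYY1 and siControl (log2, y axis) for all 17687 named genes (grey) and the 30 apoptosis regulators (coloured by role), with dashed lines at 1.5-fold and a dotted line at the level filter. The regulators lie inside the grey cloud, and APAF1 and HTRA2 are past the lines where many other genes lie as well.

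The IAPs bind caspases or mark proteins for degradation. XIAP, the strongest direct caspase inhibitor of the family, had 10.07 in siYY1 and 9.91 in siControl. BIRC2, which encodes the ubiquitin ligase cIAP1, had 9.97 in siYY1 and 10.07 in siControl. Their differences of 0.16 and -0.10 were of opposite sign and small.

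Of the caspases, 3 of 5 were kept and none was past 1.5-fold. CASP8, the initiator caspase of death receptors, had 11.80 in siYY1 and 11.72 in siControl. CASP2, an initiator activated on the PIDDosome, had 14.65 in siYY1 and 14.58 in siControl. CASP6, which is mostly an executioner, had 12.15 in siYY1 and 12.30 in siControl. CASP8 and CASP2 differed by 0.07 each and CASP6 by -0.15. CASP9, the caspase that APAF1 activates, was under the filter with 6.76 in siYY1 and 7.09 in siControl, a difference of -0.32. CASP10, a relative of caspase 8, was among the dimmest regulators, with 3.78 in siYY1 and 3.80 in siControl. The CASP6 gene overlaps MCUB, which differed by -0.31.

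In the death receptor pathway, TNFRSF10A, which encodes the TRAIL receptor DR4, had 12.33 in siYY1 and 12.06 in siControl, a difference of 0.27 or 1.21-fold. FADD, the adaptor between receptor and caspase 8, had 9.40 in siYY1 and 9.46 in siControl. CFLAR, which encodes cFLIP, had 11.74 in siYY1 and 12.13 in siControl, a difference of -0.40 or 1.32-fold lower. CASP8 minus CFLAR was thereby 0.47 higher in siYY1 (1.39-fold). The larger share of this came from CFLAR (-0.40), with CASP8 at 0.07. CFLAR makes long and short splice forms, which 1 summarized value per gene does not separate. A difference of at least the size of CFLAR was seen in 17.8% of kept genes.

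A wider list of 79 other apoptosis genes set the regulators in their pathway. Of these, 70 were measured and 48 kept, with 20 above 0, 28 below, and a median of -0.10. Past 1.5-fold in either direction were 3 of the 48 (6.25%), beside 6.82% of all kept genes. Their number did not stand apart from the background. By direction, 0 were higher, beside 3.04% of all kept genes, and 3 were lower, beside 3.78%. TRIAP1, a p53-induced inhibitor of apoptosis, was the lowest of them, at 8.70 in siYY1 and 10.09 in siControl, a difference of -1.39. TNFRSF10D, which encodes a decoy receptor that binds TRAIL without passing on the signal, had 9.46 in siYY1 and 10.15 in siControl, a difference of -0.69. PERP, a p53 target that is also a component of desmosomes, had 14.44 in siYY1 and 15.12 in siControl, a difference of -0.68.

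At the other end of that list were BAG3, a co-chaperone that restrains apoptosis (0.43), NAIP, an IAP and inflammasome sensor with near-identical copies (0.41), and the inflammatory caspase gene CASP4 (0.34). Among TRAIL receptors, the signalling receptor gene TNFRSF10B, named after its value was seen, differed by 0.09, with 12.39 in siYY1 and 12.30 in siControl. TNFRSF10A minus TNFRSF10D was 0.96 higher in siYY1 (1.94-fold). The larger share of this came from TNFRSF10D (-0.69), which was named because it was past 1.5-fold. No background was computed for differences between pairs of genes. The ligand genes TNFSF10 (5.88 in siYY1 and 4.87 in siControl) and FASLG (5.12 in siYY1 and 4.39 in siControl), also named after their values were seen, were under the filter on both arrays, so their positive differences were not shown to be above background.

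**Figure D4:**
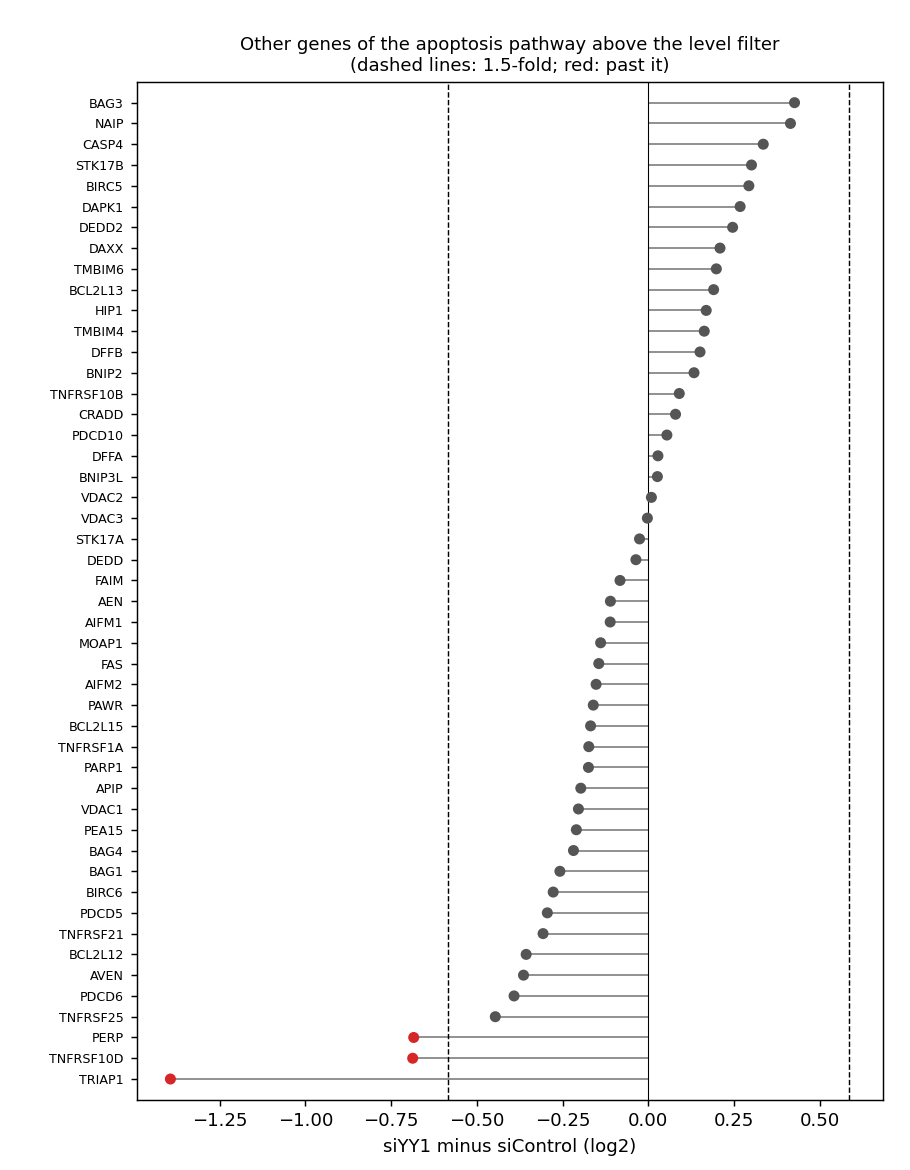
Difference between siYY1 and siControl (log2, x axis) for the 48 kept genes of the wider apoptosis list (y axis), sorted by value, with dashed lines at 1.5-fold. Points past the lines are red, and they are TRIAP1 (-1.39), TNFRSF10D (-0.69) and PERP (-0.68), all on the lower side.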

How the data were processed

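Total RNA of 2 SW48 cultures, siYY1 and siControl, was measured on 1 array each, with the groups as the titles name them. Each probe set has 1 deposited value, summarized by the authors and taken as log2, a unit read from the values (2.32 to 17.97 in siYY1 and 2.46 to 17.90 in siControl). The software, the background correction, the normalization method and the base of the logarithm are not stated in the labels or the file. After sorting, the largest gap between the arrays was 0.153. A compressed or stretched scale would change every fold.

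Of 21448 probe sets, 17709 had 1 gene symbol in GEO's platform annotation, 0 had several and 3739 were unnamed. Symbols were checked through Entrez identifiers against RefSeq (GRCh38.p14), and 0 changed. Probe sets of a gene were averaged, and each apoptosis regulator had 1. Overlapping genes were read from RefSeq gene spans, and promoter windows were searched on both strands.

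No test was possible, and no p-value was computed. Precision is limited by the number of arrays. The members and gene lists were chosen with earlier results of these data known. All members may be named. From the wider list, kept genes past 1.5-fold and the 3 kept genes at each end were named, and exceptions are marked. The fold rule and the motif search were tested on simulated data. Alternatives were thresholds of 0.32 on the log2 scale and of 2-fold, no filter, a filter at the 75th percentile or on the higher array, quantile normalization, median and lowess centring (fraction 0.3) and the brightest probe set. Python 3.11.15, numpy 2.4.6, pandas 2.3.3, statsmodels 0.14.6 and matplotlib 3.10.9 were used.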

Additional observations from a re-analysis of the deposited data

How the results depend on the processing

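No paired analysis was possible because each group has 1 array, and leaving out a replicate was impossible for the same reason. Under quantile normalization, median centring and lowess centring, APAF1 and HTRA2 were the regulators past 1.5-fold in each setting. The brightest probe set could not change these values, since each regulator had 1 probe set. Median centring moved every gene by the same 0.01, so it could change little. No difference of the 30 regulators moved by more than 0.05. ENDOG, at 0.00, was the 1 gene whose sign changed. The median of the kept regulators was between 0.03 and 0.07 in all settings. At a threshold of 0.32 on the log2 scale, 5 of 23 regulators (21.7%) and 10 of 48 genes of the wider list (20.8%) were past it. Of all kept genes, 2274 (25.7%) were past it. The 5 regulators were APAF1 and BAK1 above and BIK, CFLAR and HTRA2 below. At 2-fold the counts were 0 of 23 regulators, 1 of 48 genes of the wider list (TRIAP1) and 84 of all kept genes (0.95%). With no filter on level, 2 of 30 regulators (6.67%) and 8 of 70 genes of the wider list (11.4%) were past 1.5-fold. Of all 17687 genes, 1394 (7.88%) were past it. Of the 8 genes, 3 were higher and 5 lower, and the 3 higher genes were all under the level filter. With the filter at the 75th percentile, 1 of 14 regulators (HTRA2, 7.14%), 1 of 25 genes of the wider list (PERP) and 204 of the 4422 genes then kept (4.61%) were past it, since fewer genes were tested and APAF1, TRIAP1 and TNFRSF10D were dimmer than that filter. Values close to the filter are limited by signal over background, which the deposited table does not state.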

Other observations

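Genes of other forms of cell death were read in lists chosen with earlier results of these data known. Of 21 such genes measured, 11 were kept and 0 of these were past 1.5-fold, beside 6.82% of all kept genes, so the count does not stand apart from the background. Among the 3 kept genes of the necroptosis list, the NF-kB feedback inhibitor gene TNFAIP3 had the highest difference, with 8.29 in siYY1 and 7.89 in siControl, a difference of 0.39. MLKL, the executor of necroptosis, had 9.69 in siYY1 and 9.90 in siControl, while its upstream kinase gene RIPK3 was dim, with a difference of -0.44. GSDMD, the pore-forming protein of pyroptosis, differed by 0.24. In the ferroptosis list, GPX4, the lipid peroxidase that prevents this death, had 14.09 in siYY1 and 13.97 in siControl, and the cystine transporter gene SLC7A11 differed by 0.30. CYLD, a deubiquitinase that acts on RIPK1 complexes, lay just under the filter by its mean, and its difference of 0.78 is uncertain for that reason. Also under the filter were the inflammasome sensor gene NLRP3, with a difference of -0.83, and the gasdermin gene GSDMB, with -0.56.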
